A study of Homo sapiens with 12 samples.

Results

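Matricellular proteins and fibulins are secreted or matrix-bound proteins that regulate how cells contact their surroundings, and 10 of their genes were followed here across 4 lines of a pancreatic carcinoma cell line. The genes were thrombospondins 1 and 2 (THBS1, THBS2), versican (VCAN), SPARC, tenascin C (TNC), fibulins 1 and 2 (FBLN1, FBLN2), the fibulin-like proteins EFEMP1 and EFEMP2, and the latent TGF-beta binding protein LTBP2. They were chosen by name, and all 10 were found among the 63086 genes of the table. RNA of MIA PaCa-2, a pancreatic carcinoma line, had been sequenced to ask which transcripts depend on TIMP1. TIMP1 encodes tissue inhibitor of metalloproteinases 1, a secreted protease inhibitor. The study picked the line for its mesenchymal, basal-like character, its high TIMP1, its broad expression of a set of secreted factors and its suppression of natural killer cells. The 12 libraries came from unmanipulated cells (WT), a CRISPR Control line that went through editing and by the study's methods kept only a silent point mutation, and the knockout clones TIMP1 KO 1 and TIMP1 KO 2 (KO 1 and KO 2 below), edited with guides to different regions of TIMP1 exon 4. Each line had 3 libraries. No line was treated. Each knockout line was a clone, so an effect of the knockout and a property of the clone cannot be told apart within a line.

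Thrombospondins, tenascin C and SPARC are matricellular proteins: they bind cell surface receptors, growth factors and matrix fibres without being a main structural part of the matrix. Versican is a large chondroitin sulfate proteoglycan that binds hyaluronan. Fibulins bridge basement membrane and elastic fibre components, and LTBP2 binds fibrillin microfibrils and, unlike other proteins of its family, does not bind latent TGF-beta. In pancreatic carcinoma much of this matrix is laid down by stromal fibroblasts, whereas the labels of these cultures name a carcinoma cell line alone.

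The deposited value of a gene is its read count scaled by the size factor of the library, here called the normalised count. Libraries held 26908701 to 36093563 reads in genes. TIMP1, the targeted gene, had normalised counts of 3837, 3290.2 and 3532 in the WT libraries and 2285, 2826 and 2959 in those of CRISPR Control. KO 1 had 1562, 1624 and 1613, and KO 2 had 1136, 1192 and 1155. All 6 knockout libraries lay below the other 6, and TIMP1 RNA remained in each of them. By name the samples are biological replicates, but nothing says that they came from separate cultures, so p-values measure the spread between these samples. The 5 epithelial markers (KRT8, KRT18, KRT19, EPCAM, CDH1) were present in every library, with a summed normalised count of 193160 to 216434 in WT, 56497 to 72652 in CRISPR Control, 215549 to 223400 in KO 1 and 174138 to 198045 in KO 2. VIM, the mesenchymal filament gene vimentin, had 51007 to 95128 in every library. Of the 7 fibroblast markers, DCN, LUM and FAP were at or near 0, with no more than 6 reads in any library, while PDGFRA, PDGFRB and ACTA2 were measured at means of 79.6, 37.1 and 33.8 over the 12 libraries. The summed fibroblast list ran from 11262 to 11950 in WT, 7739 to 10151 in CRISPR Control, 50890 to 64858 in KO 1 and 29217 to 40223 in KO 2, nearly all of it COL1A1, a collagen gene. Endothelial markers summed to at most 32.3 and the leukocyte marker PTPRC to at most 7.46. Genes on the opposite strand overlap THBS1, THBS2, VCAN, SPARC, TNC, EFEMP2 and LTBP2 in the annotation, and none overlaps FBLN1, FBLN2 or EFEMP1.

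The levels of the 10 genes spanned a wide range, and which gene led depended on the line. Per kilobase of annotated exon, LTBP2 was the most abundant in WT at 2040.2 normalised counts per kb, ahead of FBLN1 at 1100.4. In CRISPR Control the order was turned, with FBLN1 at 829 per kb and LTBP2 at 112. In both knockout lines LTBP2 led again, at 3893 per kb in KO 1 and 3903 in KO 2. TNC took rank 3 in CRISPR Control at 82.3 per kb, close to EFEMP2 at 79.0, and rank 8 in KO 1 at 0.897. EFEMP1 ran the other way, from 1.48 per kb in CRISPR Control, the place above only THBS2, to 302 in KO 1, where it took rank 3. VCAN and THBS2 held the lowest places in both knockout lines.

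**Figure D1:**
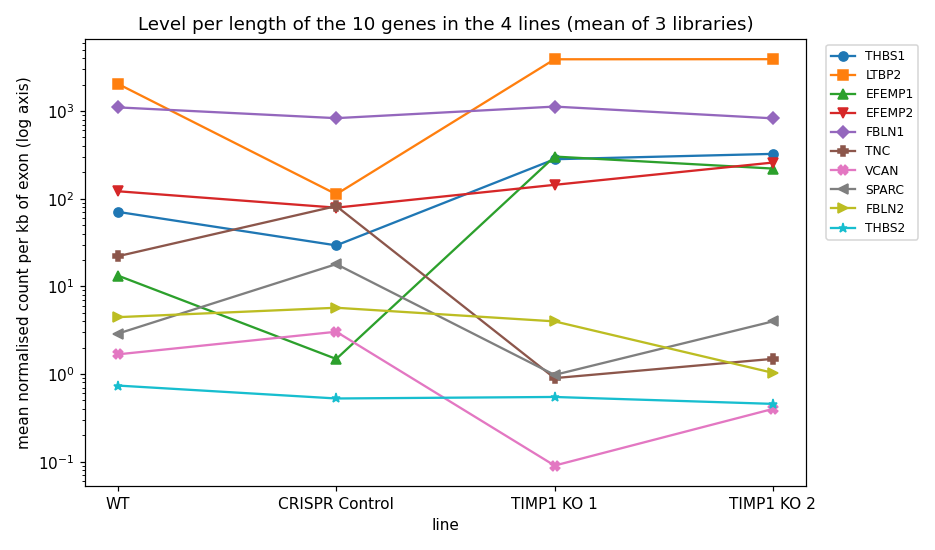
Mean normalised count per kb of annotated exon, on a log axis, for the 10 genes in the 4 lines (mean of 3 libraries each). LTBP2 falls to 112 per kb in CRISPR Control and stands at 3893 in KO 1 and 3903 in KO 2, EFEMP1 and THBS1 are also lowest in CRISPR Control and highest in the knockout lines, and TNC runs the opposite way.

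THBS1 (ENSG00000137801.11, chromosome 15, 39581079 to 39599466, plus strand, build GRCh38) encodes a secreted trimer that activates latent TGF-beta and binds the receptors CD36 and CD47. Its normalised counts were 643, 624 and 676 in the WT libraries and 287, 243 and 276 in those of CRISPR Control. KO 1 had 2485, 2607 and 2653, and KO 2 had 3111, 3039 and 2766. The 6 knockout libraries were all higher than the WT libraries, the CRISPR Control libraries were all lower, and these 3 sets did not overlap. KO 1 held 3.99 times and KO 2 4.59 times the WT mean, while CRISPR Control held 41.5% of it. Relative to WT, limma gave KO 1 a log2 fold change of 1.99 (SE 0.08, adjusted p 9.29e-13), KO 2 a change of 2.20 (SE 0.08, adjusted p 1.44e-13) and CRISPR Control a change of -1.27 (SE 0.08, adjusted p 2.77e-10). KO 2 and KO 1 differed by 0.20 (SE 0.08, adjusted p 0.0624), which edgeR (adjusted p 0.0303) and DESeq2 (adjusted p 0.0173) on whole reads did call. In bulk RNA, a change in the share of expressing cells and a change in RNA per cell cannot be told apart, here and for every gene that follows.

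LTBP2 (ENSG00000119681.12, chromosome 14, 74498183 to 74612378, minus strand) had the highest level of the 10 genes in every line but CRISPR Control. Its normalised counts were 19307, 17153 and 19102 in WT and 37217, 33794 and 35019 in KO 1. In KO 2 they were 34353, 36225 and 35724, and in CRISPR Control 1140.1, 829 and 1091. Both clones therefore stood at the same raised level, and every CRISPR Control library stood far below every other library. Against WT the means were 1.91 times higher in KO 1 and 1.91 times higher in KO 2, and CRISPR Control held 5.51%. The log2 fold changes by limma were 0.93 (SE 0.09, adjusted p 3.07e-07), 0.94 (SE 0.09, adjusted p 1.19e-07) and -4.19 (SE 0.09, adjusted p 3.66e-17), in that order. KO 2 and KO 1 differed by 0.00 (SE 0.09, adjusted p 0.976). Measured against CRISPR Control, in place of WT, the same knockout libraries gave 5.13 and 5.13, so the size of the LTBP2 change depended on which competent line was the reference.

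EFEMP1 (ENSG00000115380.20, chromosome 2, 55865967 to 55924139, minus strand), also known as fibulin 3, encodes a glycoprotein of basement membranes and elastic tissue. Its 3 WT libraries had normalised counts of 54.3, 51.8 and 51.4, and CRISPR Control had 1.73, 7.12 and 8.79, which came from 2, 6 and 8 reads. The gene rose to 1133, 1190.4 and 1270.3 in KO 1 and to 953, 866 and 803 in KO 2. It was the largest rise among the 9 genes tested in both comparisons of a knockout line with WT, 22.8-fold in KO 1 and 16.6-fold in KO 2. On the log2 scale limma put KO 1 at 4.48 (SE 0.30, adjusted p 1e-09), KO 2 at 4.03 (SE 0.30, adjusted p 1.76e-09) and CRISPR Control at -3.16 (SE 0.30, adjusted p 5.51e-08), each relative to WT. The difference between the clones was -0.46 (SE 0.30, adjusted p 0.245), short of the threshold by limma. All KO 1 libraries stood above all KO 2 libraries, and edgeR and DESeq2 on whole reads each called EFEMP1 lower in KO 2.

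EFEMP2 (ENSG00000172638.13, chromosome 11, 65866441 to 65873592, minus strand), or fibulin 4, is needed to assemble elastic fibres with lysyl oxidase. Its normalised counts were 699, 565 and 704 in the WT libraries and 376, 404 and 499 in those of CRISPR Control. KO 1 had 712, 808 and 809, and KO 2 had 1324, 1484 and 1374. KO 2 stood above all other libraries, and CRISPR Control stood below them. Against WT it rose in KO 2 by 1.09 (SE 0.11, adjusted p 1.42e-07) and fell in CRISPR Control, with -0.62 (SE 0.11, adjusted p 0.000126). KO 1 was 0.25 (SE 0.11, adjusted p 0.0935), which did not pass the threshold, and KO 2 exceeded KO 1 by 0.84 (SE 0.11, adjusted p 8.06e-06). MUS81 overlaps EFEMP2 on the opposite strand, and its reads could be counted with it where strand was not used.

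TNC (ENSG00000041982.17, chromosome 9, 115019575 to 115118207, minus strand) encodes a hexameric glycoprotein that appears in wounds and tumor stroma and modulates cell adhesion. Normalised counts were 229.8, 198 and 207 in WT and 952, 648 and 769 in CRISPR Control. KO 1 had 13.0, 2.25 and 10.6 and KO 2 had 13.3, 11.4 and 18.2, from 12, 2 and 12 and from 16, 13 and 18 reads. The lines did not overlap except for the clones with each other: CRISPR Control was highest, WT next, and the clones had no more than 18 reads in any library. KO 1 held 4.07% and KO 2 6.75% of the WT mean, and CRISPR Control 3.73 times that mean. The limma estimates relative to WT put KO 1 at -4.72 (SE 0.37, adjusted p 8.68e-09), KO 2 at -3.82 (SE 0.37, adjusted p 6.08e-08) and CRISPR Control at 1.88 (SE 0.37, adjusted p 0.000295). The clones differed by 0.90 (SE 0.37, adjusted p 0.0625), which did not pass the threshold. It did pass without KO 1 replicate 1 (1.29, adjusted p 0.0112) or replicate 3 (1.16, adjusted p 0.032), and with all libraries scaled to equal totals (0.99, adjusted p 0.0445).

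VCAN (ENSG00000038427.16, chromosome 5, 83471618 to 83582303, plus strand) was low in every line. Normalised counts were 27.2, 20.9 and 25.7 in the WT libraries and 51.0, 33.2 and 49.5 in those of CRISPR Control. KO 1 had 1.08, 1.13 and 1.77, and KO 2 had 5.80, 8.77 and 3.03. All 6 knockout libraries lay below all 6 competent ones. In KO 1 the gene had at most 2 reads a library, which is under the floor of 3 reads that a count of 0 allows. With KO 1 set at that floor, VCAN was 7.29-fold lower than in WT and 13.2-fold lower than in CRISPR Control. Because KO 1 held some reads, these folds are not strict limits. In KO 2, with 7, 10 and 3 reads, it held 23.8% of the WT mean. Both knockout lines passed the threshold against WT, with fitted values of -3.47 (SE 0.40, adjusted p 1.39e-06) and -1.98 (SE 0.40, adjusted p 0.000332), the first of which depends on the pseudocount. CRISPR Control did not, with 0.81 (SE 0.40, adjusted p 0.0915). edgeR and DESeq2 on whole reads called that difference, with 0.85 (adjusted p 0.018) and 0.87 (adjusted p 0.0367), in the direction opposite to the knockout lines.

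SPARC (ENSG00000113140.11, chromosome 5, 151661096 to 151686975, minus strand), a collagen-binding glycoprotein, separated the clones. Normalised counts were 11.3, 13.6 and 15.2 in the WT libraries and 76.9, 89.0 and 83.5 in those of CRISPR Control. KO 1 had 7.56, 3.38 and 2.65, and KO 2 had 14.1, 20.2 and 21.2. CRISPR Control stood above all other libraries, KO 1 below all others, and KO 2 overlapped WT. Against WT, SPARC fell in KO 1 by limma, -1.47 (SE 0.34, adjusted p 0.00212), and rose in CRISPR Control, 2.55 (SE 0.34, adjusted p 4.21e-06). KO 2 was 0.42 (SE 0.34, adjusted p 0.3), and KO 2 exceeded KO 1 by 1.90 (SE 0.34, adjusted p 0.000199). KO 1 values came from 7, 3 and 3 reads, so their ratios carry a wide counting error.

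FBLN1 (ENSG00000077942.19, chromosome 22, 45502238 to 45601135, plus strand), a fibulin of basement membranes and blood plasma, varied least across the lines among the genes with over 100 counts. Its normalised counts were 8533, 7507 and 8009 in the WT libraries and 5582, 5639.8 and 6904 in those of CRISPR Control. KO 1 had 8186, 8228 and 8143, and KO 2 had 5633, 6213 and 6196. The lines fell into a higher pair, WT and KO 1, and a lower pair, CRISPR Control and KO 2, which did not overlap. KO 2 was lower than WT by limma, -0.41 (SE 0.08, adjusted p 0.000277), and CRISPR Control by a like amount, -0.41 (SE 0.08, adjusted p 0.000309). KO 1 and WT differed by 0.03 (SE 0.08, adjusted p 0.797). KO 2 and CRISPR Control differed by -0.00 (SE 0.08, adjusted p 0.991) and this difference turned positive, still short of the threshold, with equal library totals at 0.11, quantile normalization at 0.13, edgeR at 0.02 and DESeq2 at 0.0016. Equal library totals also moved the median of all genes to 0.11 on the log2 scale in that comparison.

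FBLN2 (ENSG00000163520.14, chromosome 3, 13549125 to 13638422, plus strand), a fibulin of vessel walls and basement membranes, was low in every line. Counts were 18.1, 29.1 and 17.1 in WT, 22.5, 22.5 and 37.4 in CRISPR Control and 31.3, 11.3 and 15.0 in KO 1, sets that overlapped. In KO 2 they were 9.11, 1.75 and 4.04, below all other libraries. The log2 fold change of KO 2 was -2.07 (SE 0.46, adjusted p 0.000872) against WT and -1.83 (SE 0.46, adjusted p 0.00388) against KO 1, and that of KO 1 against WT was -0.24 (SE 0.46, adjusted p 0.728). FBLN2 thus fell in KO 2 and did not pass the threshold in KO 1.

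THBS2 (ENSG00000186340.17, chromosome 6, 169215780 to 169254050, minus strand), the paralog of THBS1, was close to undetected. Libraries held 0 to 11 reads, and the line means were 3.94 ± 3.42 for KO 1 and 3.28 ± 0.242 for KO 2, beside 5.31 ± 5.24 for WT and 3.78 ± 2.46 for CRISPR Control (SD, n = 3). Its mean over the 12 libraries was under the minimum of 10, so it was left out of the genes tested. With no minimum, limma gave differences of -0.23 to 0.24 over the 6 pairs of lines (SE 0.85, lowest adjusted p 0.954), and a difference between the lines was not detectable at this depth.

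**Figure D2:**
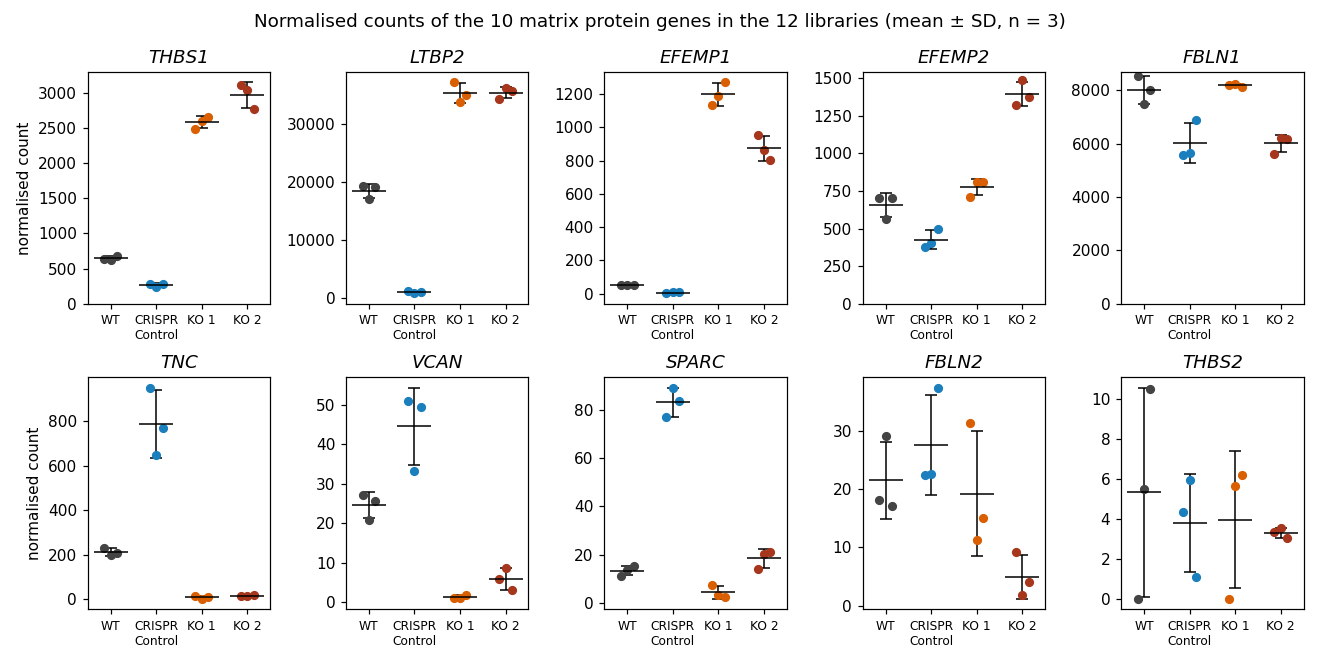
Normalised counts of each gene by library (points, 3 per line), with the mean and SD per line (black), each panel on its own linear axis. LTBP2, THBS1 and EFEMP1 are high in both knockout lines and lowest in CRISPR Control, TNC is highest in CRISPR Control and near 0 in both clones, and SPARC, FBLN1, FBLN2 and EFEMP2 separate KO 1 from KO 2.

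Across the 9 genes tested, KO 1 against WT gave 6 calls, where 35.5% of all 15987 tested genes were called. THBS1, EFEMP1 and LTBP2 were higher (18.0% of all genes were) and VCAN, SPARC and TNC lower (17.5%). KO 2 against WT gave 8 calls (55.0% of all genes), 4 higher (27.1%) and 4 lower (27.9%). CRISPR Control against WT gave 7 calls (53.4%), SPARC and TNC higher (27.2%) and 5 lower (26.3%). With CRISPR Control as the reference, KO 1 gave 8 calls (63.0%), 5 higher (31.7%) and 3 lower (31.3%), and KO 2 gave 8 (67.7%), 4 higher (33.3%) and 4 lower (34.4%). KO 2 against KO 1 gave 5 calls (38.2%), VCAN, SPARC and EFEMP2 higher in KO 2 (18.1%) and FBLN1 and FBLN2 lower (20.1%). The F test across the 4 lines was passed by all 9 (80.4%). With shares of all genes this large, the counts at this threshold describe the 9 genes and do not set them apart. With a minimum absolute log2 fold change of 1, 5 genes passed in KO 1 against WT (8.21% of all genes). In KO 2 against WT 6 passed (14.7%), and in CRISPR Control against WT 5 (14.7%). Whether the 9 genes stand apart from all genes was not tested.

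The mean of KO 1 and KO 2, the deficient lines, was compared with the mean of WT and CRISPR Control, the competent lines. In the deficient lines 4 genes were higher (32.9% of all genes were) and 4 lower (33.0%), where 65.9% of all genes passed. The higher genes were EFEMP1 at 5.83, LTBP2 at 3.03, THBS1 at 2.73 and EFEMP2 at 0.98 (log2 fold changes by limma). The lower genes were TNC at -5.21, VCAN at -3.13, SPARC at -1.80 and FBLN2 at -1.33. Against WT alone, SPARC in KO 2 did not pass the threshold, nor did FBLN2 and EFEMP2 in KO 1. FBLN1 was 0.02 (SE 0.06, adjusted p 0.824). For LTBP2 the competent mean averaged lines that themselves differed 18.2-fold. The competent lines also differed 8.94-fold for EFEMP1, 6.20-fold for SPARC, 3.73-fold for TNC and 2.41-fold for THBS1. For 6 genes the deficient libraries did not overlap the competent ones, an arrangement held by 24.7% of all tested genes. THBS1, EFEMP1, EFEMP2 and LTBP2 lay above (12.3% of all genes did) and VCAN and TNC below (12.4%). For EFEMP2 the lowest deficient library, at 712 in KO 1, was close to the highest competent library, at 704 in WT. The median over the 9 genes was 0.02, beside 0.0023 over all genes.

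WT and CRISPR Control were not alike for these genes. In THBS1, EFEMP1, LTBP2 and TNC both knockout lines differed from WT to 1 side and CRISPR Control to the other, a pattern held by 4 of the 9 genes and by 9.56% of all tested genes (4.68% with the knockout lines higher, as in THBS1, EFEMP1 and LTBP2, and 4.88% with them lower, as in TNC). All 3 comparisons share the WT libraries. With WT in between, each knockout line necessarily differed more from CRISPR Control than from WT in these 4 genes. On the log2 scale THBS1 differed from CRISPR Control by 3.26 in KO 1 and 3.46 in KO 2, EFEMP1 by 7.64 and 7.18, and TNC by -6.60 and -5.70. In the study, TIMP1-dependent genes were those with a difference from WT in each knockout line but none in CRISPR Control, and a shared direction in the knockout lines was asked here as well. Only VCAN met this rule among the 9 genes, in the lower direction, and 10.2% of all genes did, 5.18% in the lower direction. It no longer did with a pseudocount of 10, or with edgeR or DESeq2 on whole reads, because VCAN then differed between CRISPR Control and WT.

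**Figure D3:**
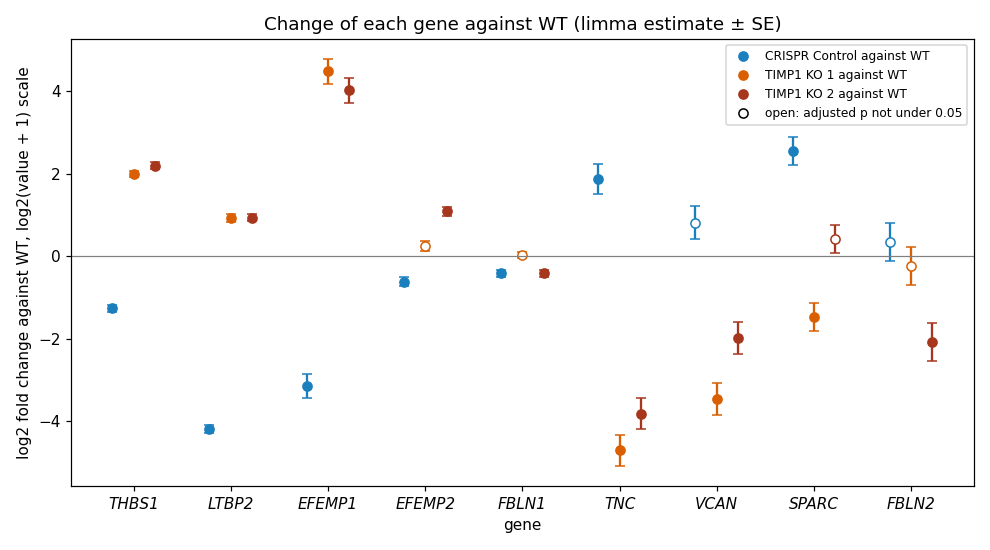
Log2 fold change of each tested gene against WT (limma estimate ± SE, log2(value + 1) scale) in CRISPR Control, KO 1 and KO 2, open points where the adjusted p was not under 0.05. For THBS1, LTBP2, EFEMP1 and TNC the CRISPR Control point lies on the other side of 0 from both knockout points.

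Some markers moved with these results and others did not. COL1A1 averaged 56612 ± 7289.6 in KO 1 and 33836 ± 5543 in KO 2, against 11490.2 ± 353 in WT and 8868 ± 1196 in CRISPR Control (mean ± SD, n = 3), so it was high where THBS1, LTBP2 and EFEMP1 were. KRT8, an epithelial keratin, averaged 129995 ± 7797 in WT and 39963 ± 5048 in CRISPR Control. CDH1, which encodes E-cadherin, averaged 1189 ± 56.6 in WT and 1424 ± 73.0 in CRISPR Control, against 128 ± 28.1 in KO 1 and 84.9 ± 17.1 in KO 2. The other epithelial markers did not follow CDH1. By limma against WT, KRT19 rose in KO 1 (0.65, adjusted p 9.24e-05) and KO 2 (1.74, adjusted p 1.15e-10) and fell in CRISPR Control (-1.79, adjusted p 6.64e-11). KRT8, KRT18 and EPCAM did not pass in KO 1 (adjusted p 0.625, 0.73 and 0.447) and were lower in KO 2 (-0.43, -0.62 and -0.54). The part of the markers in the changes of the matrix genes was not tested. Of the other fibroblast markers, DCN, LUM and FAP were at or near 0 in every line, and PDGFRA, PDGFRB and ACTA2 were not. PDGFRA, a growth factor receptor, averaged 283 ± 18.5 in KO 2 and 8.41 ± 3.71 in KO 1, against 23.6 ± 2.18 in WT and 2.95 ± 3.71 in CRISPR Control, and it was lower than WT in KO 1 (-1.47, adjusted p 0.0327) and higher in KO 2 (3.54, adjusted p 1.12e-05). PDGFRB was higher than WT in KO 1 (1.19, adjusted p 0.00979), KO 2 (1.69, adjusted p 0.00032) and CRISPR Control (1.89, adjusted p 0.00012). ACTA2 averaged 27.3 ± 5.27 in WT and 45.4 ± 2.63 in KO 2 and passed the threshold in none of the 3.

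Over the 12 libraries the genes fell into opposed sets. The correlation of log2(value + 1) was 0.982 between EFEMP1 and THBS1, 0.904 between LTBP2 and EFEMP1 and 0.896 between LTBP2 and THBS1. TNC correlated with VCAN at 0.944 and with SPARC at 0.791, and with THBS1 at -0.967. FBLN1 correlated with SPARC at -0.708 and with LTBP2 at 0.472, and more weakly with THBS1 at 0.196 and TNC at -0.261. The points are 4 lines with 3 libraries each, so these values mostly describe differences between 4 line means.

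The bases before the start sites of THBS1, LTBP2 and TNC are shown because these genes moved in both clones and in the opposite direction in CRISPR Control, the first pair up in the clones and TNC down. They are the reference sequence of RefSeq (GRCh38.p14), written 5′ to 3′ on the strand of the gene, up to the base before the gene start in GENCODE. For LTBP2 and TNC that start lies upstream of the RefSeq start, so the stretch shown is shorter than the one searched. Capitals mark GGGCGG on either strand, a motif bound by SP1, and in THBS1 also GGAATG, a motif bound by TEAD factors.
THBS1, chr15:39580829-39581078, plus strand: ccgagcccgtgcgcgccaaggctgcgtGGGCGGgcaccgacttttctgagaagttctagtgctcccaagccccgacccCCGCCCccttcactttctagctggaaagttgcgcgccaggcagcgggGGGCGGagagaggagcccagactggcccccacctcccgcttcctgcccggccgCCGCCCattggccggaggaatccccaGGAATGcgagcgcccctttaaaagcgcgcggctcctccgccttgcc
LTBP2, chr14:74612379-74612487, minus strand: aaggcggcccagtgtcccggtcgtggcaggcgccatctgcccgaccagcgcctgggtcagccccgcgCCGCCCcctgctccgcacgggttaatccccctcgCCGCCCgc
TNC, chr9:115118208-115118407, minus strand: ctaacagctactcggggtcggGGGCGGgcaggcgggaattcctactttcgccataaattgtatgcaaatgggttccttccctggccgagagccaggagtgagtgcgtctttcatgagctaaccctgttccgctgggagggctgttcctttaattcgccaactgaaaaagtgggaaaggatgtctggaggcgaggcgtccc

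RefSeq promoters were found for 9 of the 10 genes (all but EFEMP1, which moved like THBS1 and LTBP2), each searched over the 250 bases before its RefSeq start, on both strands, for 5 motifs. GGGCGG occurred 4 times in THBS1, 3 times in LTBP2 and once in TNC, and it was held by 42.6% of all 35116 promoters. It also occurred 5 times each in FBLN2 and EFEMP2, once each in VCAN and FBLN1, and not in SPARC or THBS2. GGAATG occurred once in THBS1, at position -46 from the start, and in SPARC and THBS2, and was held by 11.9% of all promoters. TATAAA occurred only in THBS2 (10.7% of all promoters), and TGANTCA, bound by AP-1, in none of the 9 (6.57%). CAGAC, bound by SMAD proteins, was found in THBS1 and TNC and not in LTBP2 (38.0% of all promoters). The printed stretch of LTBP2 holds its GGGCGG matches but 1, which lies past the GENCODE start. No match in THBS1, LTBP2 or TNC overlapped another motif. THBS1 and LTBP2 shared no searched motif that TNC lacked.

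The relatives and partners of the 10 genes were read from lists. Among 8 tested thrombospondins and CCN proteins, secreted relatives that also bind integrins, 4 were higher and 3 lower in the deficient lines, with a median log2 fold change of 0.33. Of all tested genes 32.9% were higher in the deficient lines and 33.0% lower. THBS3 averaged 753 ± 104 for WT and rose to 1454 ± 93.9 for KO 1 and 2028 ± 115 for KO 2, with 349 ± 35.8 for CRISPR Control (mean ± SD, n = 3), the order seen for THBS1. CCN4, listed under its older symbol WISP1, averaged 369 ± 42.0 in WT and 41.5 ± 6.99 in CRISPR Control, a log2 fold change of -3.13 (SE 0.14, adjusted p 1.4e-12). It fell in KO 1 (-0.66, adjusted p 0.0012) and rose in KO 2 (0.45, adjusted p 0.0115), the latter not past the threshold after quantile normalization.

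Of 5 tested SPARC relatives and other matricellular proteins, SPOCK1, SPOCK2, SPOCK3 and TGFBI were higher and FSTL1 lower in the deficient lines (32.9% and 33.0% of all genes), with a median of 1.91. TGFBI, a TGF-beta induced matrix protein, averaged 12546 ± 78.4 in KO 1 and 12662 ± 455 in KO 2, against 3005 ± 106 in WT and 782 ± 27.6 in CRISPR Control (mean ± SD, n = 3), so it also lay to opposite sides of WT. SPOCK1, a testican proteoglycan with a SPARC-like domain, had a WT mean of 230.4 ± 17.0, a KO 1 mean of 1789.5 ± 107 and a KO 2 mean of 757 ± 109.6, log2 fold changes of 2.95 and 1.71. TNXB was the only other tenascin with enough reads, and it was higher in the deficient lines (0.70). In KO 2 TNXB passed the threshold against WT (0.85) and CRISPR Control (1.15), and in KO 1 against neither (0.26 and 0.56). The TNXB call was lost by quantile normalization, and TNXB shares near-identical sequence with the pseudogene TNXA, so its count is uncertain. SPP1 and POSTN, both matricellular genes, were under the minimum.

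The hyaluronan system around versican was also measured. Of 7 tested hyalectans, link proteins and hyaluronan synthases, 3 were higher and 2 lower in the deficient lines (32.9% and 33.0% of all genes), with a median of 0.20. HAPLN3, a link protein that fixes hyalectans such as versican to hyaluronan, followed VCAN and TNC: it averaged 584 ± 45.1 in KO 1 and 979 ± 144 in KO 2, against 2614 ± 58.5 in WT and 8299 ± 975 in CRISPR Control (mean ± SD, n = 3). Relative to WT it changed by -2.16 (SE 0.10, adjusted p 6.49e-12) for KO 1, -1.43 (SE 0.10, adjusted p 1.16e-09) for KO 2 and 1.66 (SE 0.10, adjusted p 1.27e-10) for CRISPR Control. HAS2, which makes hyaluronan, was higher than WT in all 3 other lines, at 1.99, 2.98 and 2.12. All 3 tested proteases that cleave versican were higher in KO 2 than in KO 1 (18.1% of all genes were). ADAMTS15 averaged 135 ± 19.2 in KO 1 and 1215 ± 57.0 in KO 2, a log2 fold change of 3.17 (SE 0.13, adjusted p 8.29e-13), and ADAMTS1 averaged 5.74 ± 0.403 in KO 1 and 164 ± 19.8 in KO 2.

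All 4 other fibulins and hemicentins tested, FBLN5, FBLN7, HMCN1 and HMCN2, were higher in CRISPR Control than in WT (27.2% of all genes), with a median of 1.58. In the deficient lines HMCN2 was higher (32.9% of all genes) and FBLN5 and HMCN1 were lower (33.0%). Against WT alone, FBLN5 was lower only in KO 1, and HMCN1 was lower in neither clone. FBLN5, an elastic fibre fibulin, averaged 13.8 ± 3.22 in KO 1 and 34.0 ± 6.99 in KO 2, against 34.4 ± 8.42 in WT and 236 ± 27.0 in CRISPR Control (mean ± SD, n = 3). HMCN2 no longer passed in CRISPR Control by edgeR or DESeq2. FBLN1, EFEMP1 and EFEMP2 were lower in CRISPR Control than in WT, so the fibulins there went in both directions.

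Of 13 tested LTBPs, fibrillins and other elastic fibre genes, 8 were higher and 5 lower in the deficient lines (32.9% and 33.0% of all genes), with a median of 0.58. LTBP1, which does hold latent TGF-beta, kept the order of LTBP2, with 9632 ± 93.7 in KO 1 and 9259 ± 174 in KO 2, beside 4591 ± 157 in WT and 1616 ± 96.7 in CRISPR Control (mean ± SD, n = 3). Relative to WT, LTBP1 had log2 fold changes of 1.07 (SE 0.06, adjusted p 2.38e-10) for KO 1, 1.01 (SE 0.06, adjusted p 2.15e-10) for KO 2 and -1.51 (SE 0.06, adjusted p 5.86e-13) for CRISPR Control. FBN1, the fibrillin that LTBP2 binds, went apart from it, with 25.8 ± 6.85 in KO 1 and 137 ± 5.44 in KO 2, beside 51.6 ± 8.08 in WT and 348 ± 88.2 in CRISPR Control. FBN1 was lower than WT in KO 1 (-0.99, adjusted p 0.00109) and higher in KO 2 (1.40, adjusted p 1.56e-05).

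Among 11 tested receptors of the 10 proteins, 7 were higher and 2 lower in the deficient lines (32.9% and 33.0% of all genes), with a median of 0.49. CD47, a thrombospondin receptor, averaged 1782 ± 114 in WT and 4663 ± 233 in KO 2, a log2 fold change of 1.39 (SE 0.08, adjusted p 3.33e-11). By limma CD47 was also higher than WT in KO 1 (0.58, adjusted p 8.8e-06) and in CRISPR Control (0.50, adjusted p 2.86e-05). KO 1 and CRISPR Control differed by 0.09 in CD47 (adjusted p 0.337), short of the threshold. ITGB3, the beta chain of an integrin that binds THBS1 and TNC, was 1.12 in KO 1, 0.41 in KO 2 and -1.47 in CRISPR Control, all past the threshold against WT. All 3 TGF-beta ligands were tested, and TGFB1 and TGFB3 were higher in the deficient lines (32.9% of all genes). TGFB1 changed little, by 0.37 in KO 1 and 0.32 in KO 2, while TGFB3 averaged 217 ± 9.75 in KO 1 and 421 ± 27.7 in KO 2, against 223 ± 13.0 in WT and 51.7 ± 19.1 in CRISPR Control (mean ± SD, n = 3). Of 3 tested proteases that cleave versican, ADAMTS1 was higher and ADAMTS4 lower in the deficient lines (32.9% and 33.0% of all genes). ADAMTS1 was higher than WT and than CRISPR Control in KO 2 alone. In KO 1 ADAMTS1 did not pass the threshold against WT and was lower than in CRISPR Control.

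**Figure D4:**
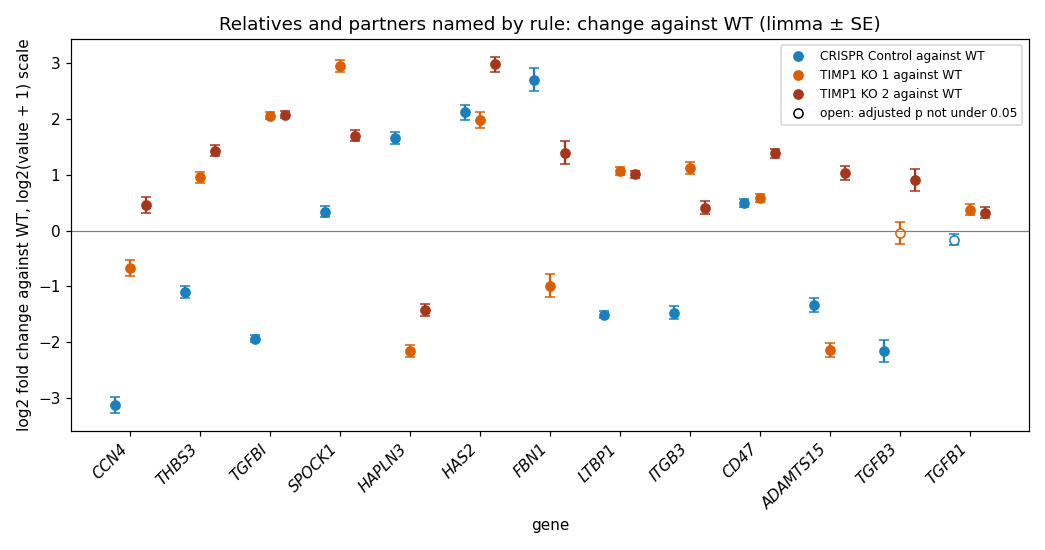
Log2 fold change against WT (limma estimate ± SE, log2(value + 1) scale) of the 13 relatives and partners picked by a rule of size, in CRISPR Control, KO 1 and KO 2, open where the adjusted p was not under 0.05. THBS3, TGFBI, LTBP1 and ITGB3 lie above 0 in both knockout lines and below 0 in CRISPR Control, and HAPLN3 shows the reverse.

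Each of the 6 genes with a mean of at least 100 was set beside the genes whose log2(value + 1) followed it most closely over the 12 libraries, out of 11641 genes. THBS1 was followed by VWA5A (r = 0.993) and TGFBI (0.992), and LTBP2 by TLN2 (0.9996), a talin, and ELFN2 (0.999). ELFN2 averaged 2608 ± 141 in KO 1 and 2329.6 ± 82.6 in KO 2, against 1294 ± 64.6 in WT and 55.3 ± 11.0 in CRISPR Control (mean ± SD, n = 3). EFEMP1 was followed by PRSS23 (0.998), whose line means of 34825 to 58917 spanned a far smaller range, and by DEPP1 (0.993). TNC was followed by BMP5 (0.993), a bone morphogenetic protein, and INPP4B (0.983), a phosphoinositide phosphatase. BMP5 averaged 10.6 ± 5.30 in KO 1 and 20.1 ± 9.25 in KO 2, against 585 ± 69.4 in WT and 2890.4 ± 286 in CRISPR Control. FBLN1 was followed by IMPDH1 (0.974) and the glycolytic gene ENO1 (0.973), and EFEMP2 by SLC22A17 (0.991) and KLHL22 (0.985). With 4 lines, high values arise for many genes that share an order of lines.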

How the data were processed

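RNA of the 4 lines was sequenced in 12 libraries. By the study's methods and the submitters' processing notes, the authors trimmed reads with cutadapt, mapped them with STAR to GRCh38 and counted reads per gene with featureCounts. They divided the counts by DESeq2 size factors, so the deposited values are a signal of scaled read counts, and replicates were not pooled. The strand setting and annotation release are not given in the sources used here. Dividing by each library's step returned whole reads for 100% of values (tolerance 0.01 reads).

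Groups and replicate numbers were taken from sample titles. limma (3.58.1, R 4.3.3) was run on log2(normalised count + 1) of the 15987 genes with a mean of at least 10, which held 99.9% of reads. All 12 libraries shared a spread per gene. Tests were two-sided, with Benjamini-Hochberg adjustment over all tested genes and a threshold of 0.05. The log2 scale with a pseudocount understates changes of low genes. The size factors set the typical gene equal between libraries, so a shift of most genes 1 way would be removed. Intervals of counting and the floor of 3 reads cover counting error only. The script was tested on simulated data.

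edgeR (4.0.16), DESeq2 (1.42.0), other scalings, pseudocounts and minimums and each library left out were alternatives. The genes, lists and tests were chosen with earlier results of these data known. Named were the 10 genes, TIMP1, and from each list up to 2 genes with a mean of at least 100 and the largest change past the threshold over the 6 pairs of lines. The 2 genes most correlated with each of the 10 that had a mean of at least 100 were named too. FBLN5, SPOCK2, SPOCK3, FSTL1, TNXB and the other list genes given without this rule were named after their values were seen. Gene lengths and positions came from GENCODE on GRCh38, with 99.1% of gene identifiers matched. The 4 columns of line means and 1 blank line were not used. The 12 pairs of replicates correlated at 0.990 to 0.993 across genes and differed by more than counting noise (chi-square per gene 4.53 to 29.5).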

Additional observations from a re-analysis of the deposited data

Results flagged for a closer look

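The knockout clones, which carry the same intended change, differed from each other in 5 of the 9 genes (38.2% of all tested genes), by the limma test of KO 2 against KO 1. SPARC was higher in KO 2 by 1.90 (SE 0.34, adjusted p 0.000199), VCAN by 1.48 (SE 0.40, adjusted p 0.006) and EFEMP2 by 0.84 (SE 0.11, adjusted p 8.06e-06). FBLN1 was lower in KO 2, with -0.45 (SE 0.08, adjusted p 0.000246), and so was FBLN2, with -1.83 (SE 0.46, adjusted p 0.00388). For VCAN, whose KO 1 libraries had at most 2 reads, the difference did not pass with a pseudocount of 10 (0.47, adjusted p 0.0775) or after quantile normalization (0.37, adjusted p 0.482).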

How the results depend on the processing

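Of the 50 differences between lines that passed the threshold among 63 pairs of gene and comparison, 49 kept their call and direction under each of the 22 alternatives that gave a value for them, and none changed direction. The other was VCAN between the clones. The minimum mean of 50 gave no value for VCAN, SPARC and FBLN2, and fitting only the lines compared gave none for deficient against competent lines. With a minimum mean of 50, which leaves 6 of the 9 genes, 5 genes differed between KO 2 and CRISPR Control (72.1% of all genes), 2 between KO 2 and KO 1 (43.3%) and 5 between deficient and competent lines (70.4%). With a minimum absolute log2 fold change of 1, 3 genes differed between the clones (8.25% of all genes). The intersection held 0 genes with a pseudocount of 10, with a minimum mean of 50, by edgeR and by DESeq2, since VCAN then differed between CRISPR Control and WT (0.64, adjusted p 0.0127, with a pseudocount of 10) or was left out by the minimum. THBS1 between the clones passed the threshold without CRISPR Control replicate 1 or 2 or KO 2 replicate 3, and EFEMP2 between KO 1 and WT passed when only those lines were fitted (adjusted p 0.0368). EFEMP1 between the clones passed, lower in KO 2, by edgeR, by DESeq2 and with a pseudocount of 10. It also passed when only those lines were fitted and without CRISPR Control replicate 1. Leaving out 1 library in turn gave 5 to 7 genes between the clones.

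Differences that never passed changed sign. With 1 library left out, FBLN1 ran from -0.014 to 0.078 in KO 1 against WT, from -0.055 to 0.099 in KO 2 against CRISPR Control and from -0.011 to 0.065 between deficient and competent lines. FBLN2 in KO 1 against WT ran from -0.64 to 0.058, and LTBP2 in KO 2 against KO 1 from -0.027 to 0.042. FBLN1 in KO 2 against CRISPR Control was 0.11 with equal totals, 0.13 after quantile normalization, 0.020 by edgeR and 0.0016 by DESeq2. The cause was not tested. Whether the replicate numbers pair the samples is not known, and correlations between libraries cannot decide it. Deviations of same-numbered libraries correlated at -0.129 to 0.160 over 18 pairs, and 6 of 12 libraries correlated best with their own number. A fit with the replicate block gave 6 genes in place of 5 between the clones, adding TNC (adjusted p 0.0241), and left the other counts as they were. Depth limits THBS2, VCAN and FBLN2, and TNC, SPARC and EFEMP1 in their lowest lines.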
